A study of Mus musculus with 9 samples.

Results

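Nuclear genes for subunits of the mitochondrial respiratory chain were followed in mouse ventral hippocampus after restraint stress and after treadmill exercise. Members were taken by gene symbol: Ndufa, Ndufb, Ndufc, Ndufs and Ndufv (without the Ndufaf assembly factors), Sdha to Sdhd, Uqcr, Cyc1, Cox4 to Cox8, and Atp5. Of 40213 symbols in the count tables, 92 carried such a name after 3 pseudogene symbols were set aside. Of these, 84 had a mean of 1 CPM or more over 9 libraries, where CPM is the count scaled to the library total. These were 41 genes of complex I, 4 of complex II, 9 of complex III, 13 of complex IV and 17 of complex V. The choice used names and overall level and no difference between groups, and all 84 passed the filter on low counts and were tested.

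The 9 mice were wild-type males of the C57BL/6J strain, housed from 8 weeks of age, in 3 groups of 3. Total RNA of their bulk tissue was sequenced, under 1 batch number. SUS_LE mice were stress-susceptible, had been held in ventilated tubes for 2 hours a day on 14 days in a row, and then ran on a treadmill at low intensity for 2 weeks. SUS mice were stress-susceptible and had the same restraint, but stayed sedentary in those weeks. SED mice were sedentary and had no treatment. How susceptibility was scored, the age at dissection and the interval since the last session are not given in the sources used here, and exercise without restraint was not analysed here.

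The respiratory chain sits in the inner mitochondrial membrane. Complexes I and II pass electrons from NADH and succinate to ubiquinone, complex III passes them to cytochrome c, and complex IV passes them to oxygen. The proton gradient built by complexes I, III and IV drives complex V, the ATP synthase. Most subunits are encoded in the nucleus and imported, while a few core subunits of all but complex II come from mitochondrial DNA. In the hippocampus, the ATP so made pays mainly for ion pumping and synaptic transmission.

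Library totals ran from 14172344 to 15582304 counts. By edgeR's quasi-likelihood test with Benjamini-Hochberg adjustment, 0% of 16106 genes passed an adjusted p of 0.05 in any comparison, with a common biological coefficient of variation of 0.0845. Neuron markers were abundant in every library (10 markers, summed 7792 to 8664 CPM), as were 8 markers of pyramidal cells (summed 560.3 to 666 CPM). Libraries SUS 1, SUS_LE 1 and SUS_LE 3 stood apart by low choroid plexus RNA: Ttr, its thyroid hormone carrier, had 83.2, 1509 and 59.6 CPM in SUS_LE mice, 27.4, 2659 and 6085 CPM in SUS mice, and 4310, 3543 and 2935 CPM in SED mice. Counts over all members are therefore also given without these 3 libraries, which leaves 1 SUS_LE, 2 SUS and 3 SED mice, the lone SUS_LE mouse being assumed to vary like the others. In bulk tissue, fewer cells of a type and less RNA per cell cannot be told apart.

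Subunits were expressed at high and even levels. Per kilobase of transcript, the median member had 73.3 CPM, over 83 members with an annotated length, against 6.73 CPM per kilobase over all tested genes with a length. By complex the median level per kilobase was 56.3 CPM in complex I, 52.1 CPM in complex II, 82.6 CPM in complex III, 152 CPM in complex IV and 135 CPM in complex V. The highest level belonged to Atp5b, the catalytic beta subunit of ATP synthase, at 373 CPM per kilobase. Cox4i1, the main form of the regulatory subunit 4 of cytochrome oxidase, had 329 CPM per kilobase. Uqcrh, the hinge protein of complex III, led its complex with 236 CPM per kilobase, and Ndufb9, a membrane-arm subunit, led complex I with 168.8 CPM per kilobase. In complex II, Sdha, the flavoprotein that oxidises succinate, had 105 CPM per kilobase, the iron-sulfur subunit Sdhb 77.7 CPM per kilobase, and the membrane anchors Sdhc and Sdhd 18.5 and 26.6 CPM per kilobase. Within groups the median coefficient of variation was 5.09% over members and 9.18% over all tested genes.

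**Figure D1:**
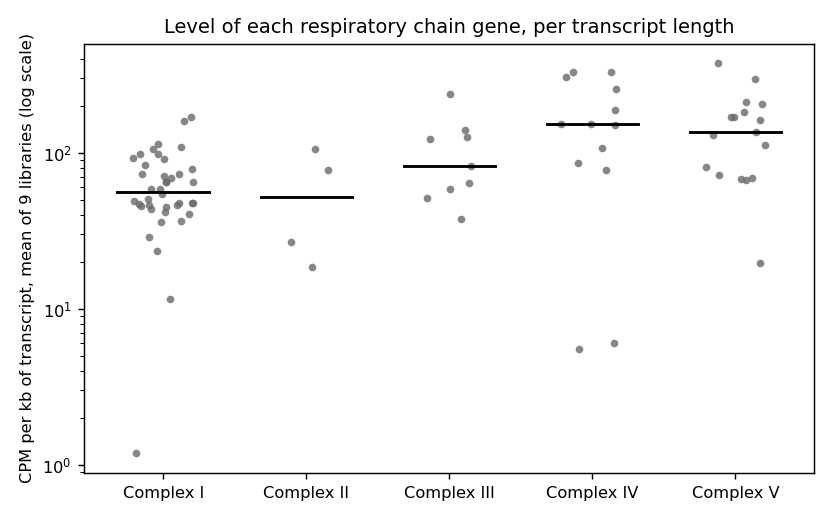
Level of each member in CPM per kilobase of transcript, mean of 9 libraries, on a log axis, by complex. Each point is 1 gene and each line the median of the complex, which ran from 52.1 CPM per kilobase in complex II to 152 CPM per kilobase in complex IV.

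The low end included tissue-restricted forms. Just above the floor of 1 CPM stood Ndufa4l2, a paralogue of Ndufa4 induced by low oxygen, with a mean of 1.10 CPM, and just below it Cox4i2, a form of subunit 4 known from lung, with 0.962 CPM. The other 7 symbols under the floor were Cox8b and Cox7a1, forms of heart and skeletal muscle (0.791 and 0.616 CPM), Cox7b2 (0.220 CPM), Ndufs6b (0.176 CPM), Ndufa11b (3 counts in all) and Ndufb11b and Cox8c, both at 0 counts in 9 libraries. A count of 0 in all libraries allows up to 3 counts over the 9, or 0.0228 CPM. Of 6 muscle markers 4, Ckm, Myl2, Tnnt3 and Myh4, had means under 1 CPM, and the first 3 were at 0 in at least 1 library.

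Members shared short transcripts. Their median length was 763 bases, against 2902 bases over all tested genes with a length, and 53 of 83 (63.9%) were shorter than 1000 bases, against 8.16% of all genes. They were spread over many chromosomes. Several have close copies: over 50% of the 31-base words of 6 transcripts also occur in other genes' transcripts, namely Ndufb4c (100%), Atp5g2 (87.7%), Atp5l (69.6%), Atp5h (59.4%), Cox7c (55.7%) and Uqcrb (54.3%). Counts of these 6 are uncertain, since reads could be split between copies, while 31 members shared no such word.

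Promoters were searched for the motifs of known regulators, since many members' values shifted together. RefSeq promoters (GRCm38.p6, 250 bases before to 50 after each start) were matched for 68 members, with 73 promoters. The NRF1 motif, GCGCA followed by any base and GCGC, is that of a known activator of respiratory genes. It was found on either strand in 24.7% of the 73, against 4.60% of 32851 promoters of all genes. The ETS motif CCGGAAG, the core of GABP (NRF2) sites, was found in 23.3% against 8.86%, and the YY1 motif AAGATGGCG in 9.59% against 1.40%. The SP1 motif GGGCGG was found in 39.7% against 35.7%, and the TATA box TATAAA in 9.59% against 13.6%. A match is a run of letters and not a bound site. Stretches of 100 bases before the start, read along the gene, are shown for 4 members described below, with the NRF1 or ETS match in capitals. These 2 motifs are those of the nuclear respiratory factors. Those of Ndufa11 (chr17:56717662-56717761, plus strand) and Sdha (chr13:74350259-74350358, minus strand) hold NRF1 matches, in Sdha 2 of the 3 in its promoter. Those of Uqcr11 (chr10:80406822-80406921, minus strand) and Atp5e (chr2:174464124-174464223, minus strand) hold ETS matches, that of Atp5e as the reverse complement.
Ndufa11: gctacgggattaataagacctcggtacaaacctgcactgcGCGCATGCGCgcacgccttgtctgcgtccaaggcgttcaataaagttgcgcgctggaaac
Sdha: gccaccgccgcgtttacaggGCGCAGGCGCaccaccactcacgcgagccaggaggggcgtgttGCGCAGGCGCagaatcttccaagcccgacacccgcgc
Uqcr11: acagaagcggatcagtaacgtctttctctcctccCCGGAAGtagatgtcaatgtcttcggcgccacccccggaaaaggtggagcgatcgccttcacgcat
Atp5e: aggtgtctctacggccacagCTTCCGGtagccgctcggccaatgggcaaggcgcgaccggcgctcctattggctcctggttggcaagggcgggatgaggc

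In SUS mice most respiratory chain subunits stood slightly above their level in SED mice, and no single gene passed the test. Of 84 members, 68 had a positive log2 fold change and 16 a negative one, while 49.9% of all tested genes had a positive one. The median log2 fold change was 0.085 over members and -0.00039 over all tested genes. By edgeR and by limma voom 0 members passed an adjusted p of 0.05 (0% of all genes by edgeR), with a smallest edgeR adjusted p of 0.182. DESeq2 called 0 members, against 1.01% of all genes (0.497% higher and 0.515% lower). It gave 18 members and 11241 of all 16106 genes no adjusted p, and these shares count such genes as not called. At an unadjusted edgeR p under 0.05, 19 members were higher and 0 lower, against 6.83% and 6.26% of all genes. In 27 members the 3 SUS values lay above all 3 SED values and in 0 below, against 9.72% and 8.56% of all genes.

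**Figure D2:**
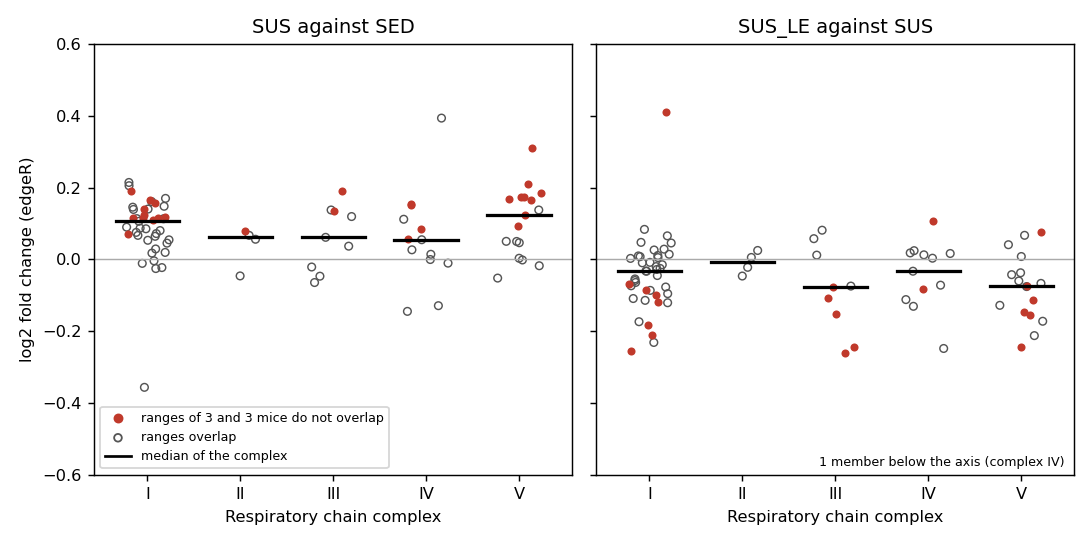
Log2 fold change of each member by complex, SUS against SED on the left and SUS_LE against SUS on the right. Filled points are members whose 3 and 3 values do not overlap, and lines are medians; most points lie above 0 on the left and below 0 on the right, and Cox6b2 (-0.99) is below the axis on the right.

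By complex the median shift lay between 0.055 and 0.12. In complex V 14 of 17 members had positive log2 fold changes (median 0.12), with 8 under an unadjusted p of 0.05. In complex I the count was 36 of 41 (median 0.11), with 7 under that p. Complexes II, III and IV had 3 of 4, 6 of 9 and 9 of 13 members above 0, with medians of 0.061, 0.061 and 0.055, and with 0, 2 and 2 members under that p. With Ndufa4 counted in complex IV, where its protein is now placed, the medians of complexes I and IV were 0.098 and 0.056. Summed over the 17 members, complex V had 2673, 2657 and 2644 CPM in SUS mice, against 2553, 2558 and 2431 CPM in SED mice. Summed complex I had 2456, 2446 and 2517 CPM in SUS mice, against 2350.4, 2368 and 2262 CPM in SED mice. Neither pair of ranges overlapped, whereas those of summed complex IV did, at 1449, 1515 and 1507 CPM in SUS mice against 1443, 1517 and 1408 CPM in SED mice. Whether the complexes differed from each other was not tested.

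**Figure D3:**
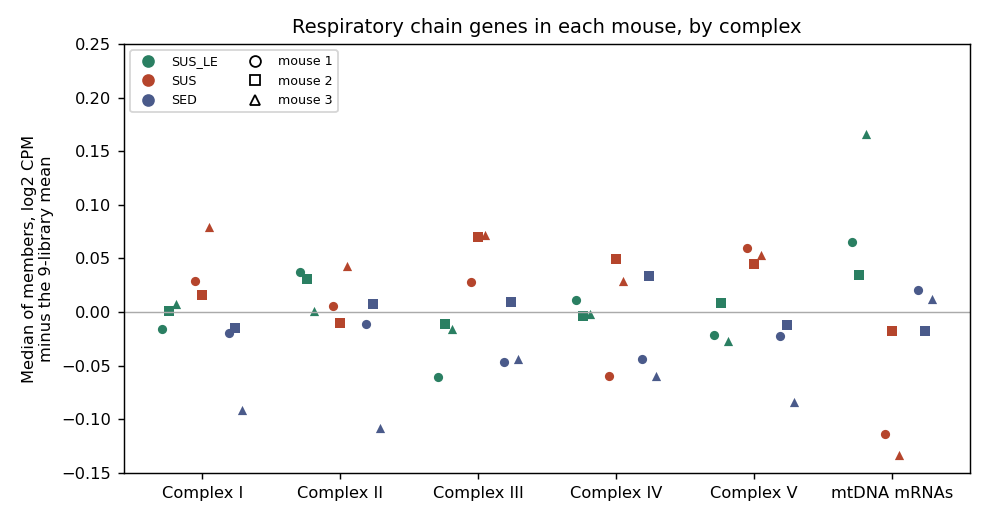
Median over the members of each complex, and over the 13 mitochondrial mRNAs, of log2 CPM minus the gene's mean over 9 libraries, in each mouse. In complex V the 3 SUS mice (0.060, 0.045 and 0.053) lie above all others, and mouse SED 3 is at or near the lowest in complexes I, II, IV and V.

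Values that moved with this shift were of 3 kinds. First, library SED 3 was the lowest of 9 in 34 members and the highest in 0. Without it 63 members had positive log2 fold changes (median 0.067), and 12 instead of 19 were higher at an unadjusted p under 0.05. The share of all genes at that p without SED 3 is not given here. Second, fold changes followed transcript length and GC content over all genes (Spearman's rho -0.227 and 0.365, across 14911 genes, which are not independent). Of all genes shorter than 1000 bases 64.7% had a positive log2 fold change, with a median of 0.073, against a median of 0.11 over the 53 members of that length. With the length and GC trends of each library removed, 49 members were above 0 and 35 below. Their median was 0.019, against 0.0026 over all tested genes in that fit. Then 7 members were higher and 2 lower at an unadjusted p under 0.05. Of all 16106 genes in that fit, 776 were higher and 625 lower at that p. The median of complex V was then 0.065 (12 of 17 above 0), that of complex I was 0.019, and those of complexes III and IV were -0.027 and -0.025.

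Markers of cell types, the last kind, also differed between these groups. Of 10 neuron markers 8 had positive log2 fold changes (median 0.094), with sums of 7792 to 8583 CPM in SUS mice against 7941 to 8087 CPM in SED mice. All 8 oligodendrocyte markers had negative ones (median -0.19), with sums of 2538 to 2899 CPM in SUS mice against 3011 to 3220 CPM in SED mice. All 10 choroid plexus markers had negative ones, with sums of 141 to 8533 CPM in SUS mice against 4370.0 to 6345 CPM in SED mice. No marker of these 3 lists was at 0 in any library. With a choroid plexus score as a covariate 79 members were above 0 (median 0.087), and without the 3 libraries low in Ttr 77 were (median 0.089). Without those libraries the medians of complexes I to V were 0.093, 0.057, 0.094, 0.072 and 0.083, with complex III the highest.

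Other marker lists differed as well. Markers of astrocytes had positive log2 fold changes in 4 of 8 (median -0.021). Their sums were 4962 to 5142 CPM in SUS mice against 5335 to 5615 CPM in SED mice, without overlap. Markers of ependyma had negative log2 fold changes in 8 of 8 (median -0.23), with sums of 37.9 to 70.8 CPM in SUS mice against 58.1 to 70.4 CPM in SED mice. Those of dentate granule cells had negative ones in 6 of 6 (median -0.18), with sums of 718 to 753 CPM in SUS mice against 754 to 855 CPM in SED mice. Those of erythrocytes had positive ones in 5 of 5 tested (median 0.38), with sums of 151 to 264 CPM in SUS mice against 162 to 172 CPM in SED mice. Endothelium markers had positive ones in 1 of 8 (median -0.11), and the 3 muscle markers tested in 3 of 3 (median 0.35). The part of RNA of these cells, of neurons and of oligodendrocytes in the shift was not tested.

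Complex I oxidises NADH in a peripheral arm and pumps protons in a membrane arm. Ndufv1, the flavoprotein that binds NADH, had 84.3, 75.1 and 79.7 CPM in SUS mice, against 70.1, 73.2 and 66.2 CPM in SED mice (log2 fold change 0.19, SE 0.06, edgeR adjusted p = 0.202). All 3 SUS values were above the 3 SED values, by less than 2 CPM at the nearest. Ndufv3, an accessory subunit beside it, had 82.5, 74.7 and 88.1 CPM in SUS mice, against 73.6, 74.5 and 70.8 CPM in SED mice (log2 fold change 0.16, SE 0.06, edgeR adjusted p = 0.269), with the nearest values almost touching. Ndufa11, a membrane subunit whose promoter is printed above, had 45.1, 39.1 and 47.4 CPM in SUS mice, against 39.7, 38.5 and 35.9 CPM in SED mice (log2 fold change 0.21, SE 0.08, edgeR adjusted p = 0.258). There SUS 2 lay within the SED range. Ndufa5, of the arm that passes electrons to ubiquinone, had 90.9, 77.2 and 83.1 CPM in SUS mice, against 76.7, 73.3 and 75.5 CPM in SED mice (log2 fold change 0.16, SE 0.06, edgeR adjusted p = 0.282), without overlap.

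Well-known subunits of complex I differed less. Ndufv2, an iron-sulfur subunit with the most counts of the complex, averaged 156 ± 6.68 CPM in SUS and 148 ± 3.698 CPM in SED mice (SD, n = 3 each; log2 fold change 0.08, SE 0.05). Ndufs1, another iron-sulfur subunit, averaged 118 ± 4.37 CPM in SUS and 119.7 ± 2.59 CPM in SED mice (-0.02, SE 0.05). Ndufs4, whose loss in mice causes a Leigh-like brain disease, averaged 49.8 ± 2.42 CPM in SUS and 48.01 ± 2.21 CPM in SED mice (0.05, SE 0.07). Ndufab1, the mitochondrial acyl carrier protein, averaged 56.6 ± 3.66 CPM in SUS and 57.6 ± 4.02 CPM in SED mice (-0.03, SE 0.07). In these 4 genes the ranges overlapped. Ndufa4 had 87.3, 89.2 and 89.6 CPM in SUS mice, against 84.1, 80.7 and 80.7 CPM in SED mice (0.12, SE 0.05), without overlap. Ndufa2 (0.21) and Ndufb8 (0.14) were the remaining 2 of the 7 members of complex I under an unadjusted p of 0.05.

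No member of complex II was under an unadjusted p of 0.05 between SUS and SED mice. Sdha had 319, 309.5 and 306 CPM in SUS mice, against 300.2, 300.3 and 284 CPM in SED mice (log2 fold change 0.08, SE 0.05, edgeR adjusted p = 0.504). Its ranges did not overlap, but 2 SED values were within 7 CPM of the lowest SUS value. Sdhb averaged 89.3 ± 1.05 CPM in SUS and 85.9 ± 4.49 CPM in SED mice, Sdhc 58.7 ± 2.39 CPM in SUS and 60.6 ± 2.08 CPM in SED mice, and Sdhd 33.2 ± 1.74 CPM in SUS and 31.7 ± 1.96 CPM in SED mice (SD, n = 3 each), all with overlapping ranges and edgeR adjusted p from 0.706 to 0.804.

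In complex III the 2 members under that p were small subunits. Uqcrq, a small subunit beside cytochrome b, had 70.2, 63.2 and 69.6 CPM in SUS mice, against 58.4, 60.1 and 59.5 CPM in SED mice (log2 fold change 0.19, SE 0.06, edgeR adjusted p = 0.204). Uqcrh, which joins cytochrome c1 to cytochrome c, had 140.1, 136 and 138 CPM in SUS mice, against 128, 124 and 125 CPM in SED mice (log2 fold change 0.14, SE 0.05, edgeR adjusted p = 0.238). In both genes the SUS values lay above all SED values. In the electron carriers of the complex the ranges overlapped: Cyc1, cytochrome c1, averaged 60.3 ± 1.66 CPM in SUS and 54.9 ± 4.69 CPM in SED mice (0.14, SE 0.07), and Uqcrfs1, the Rieske iron-sulfur protein, 68.2 ± 6.24 CPM in SUS and 69.3 ± 4.505 CPM in SED mice (-0.02, SE 0.07). The core protein Uqcrc1 averaged 142 ± 4.13 CPM in SUS and 136 ± 8.21 CPM in SED mice (0.06, SE 0.06), with overlap.

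Nuclear subunits of complex IV surround a catalytic core made in mitochondria. Cox6b1, on the face toward cytochrome c, had 100.2, 93.2 and 99.8 CPM in SUS mice, against 85.9, 89.99 and 87.8 CPM in SED mice (log2 fold change 0.15, SE 0.05, edgeR adjusted p = 0.227). Cox7a2l had 110.1, 93.3 and 94.03 CPM in SUS mice, against 87.7, 89.2 and 90.9 CPM in SED mice (log2 fold change 0.15, SE 0.06, edgeR adjusted p = 0.311). Cox4i1 had 261, 252 and 261 CPM in SUS mice, against 241, 251 and 238 CPM in SED mice (log2 fold change 0.08, SE 0.05, edgeR adjusted p = 0.458). In these 3 genes the SUS values lay above the SED values, in Cox4i1 by under 1 CPM at the nearest. Cox6a1, Cox7a2 and Cox8a had log2 fold changes of 0.03, 0.06 and 0.00, and Cox5a, which binds a thyroid hormone metabolite, averaged 52.4 ± 1.42 CPM in SUS and 48.5 ± 6.74 CPM in SED mice (0.11, SE 0.09).

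In complex V most of the 17 members belong to the proton ring, the peripheral stalk and the membrane part. So do 7 of the 8 members higher at an unadjusted p under 0.05, and 1 belongs to the head and its central stalk. Whether the parts differed was not tested. In the head, Atp5b averaged 733 ± 17.1 CPM in SUS and 708 ± 22.9 CPM in SED mice (0.05, SE 0.05), Atp5a1, the alpha subunit, 460.4 ± 12.6 CPM in SUS and 431 ± 10.7 CPM in SED mice (0.09, SE 0.05), and Atp5d, the delta subunit of the central stalk, 84.4 ± 5.302 CPM in SUS and 81.8 ± 3.81 CPM in SED mice (0.05, SE 0.06). Of these 3 genes Atp5a1 alone did not overlap. Atp5c1, the gamma subunit of the central stalk, averaged 147 ± 4.97 CPM in SUS and 149 ± 1.44 CPM in SED mice (-0.02, SE 0.05), with overlap. Atp5e, the 1 member of the head under that p, is the epsilon subunit at its foot and had 35.1, 28.9 and 33.2 CPM in SUS mice, against 28.2, 27.5 and 22.8 CPM in SED mice (log2 fold change 0.31, SE 0.09, edgeR adjusted p = 0.182). It had the smallest p of all members in this comparison, and its lowest value in any mouse was in SED 3. Over 22 alternative settings its log2 fold change ran from 0.18 to 0.38 and its adjusted p from 0.0386 to 0.570.

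Among genes of the rotating ring, which all encode the same mature subunit c, Atp5g3 had 134, 131 and 124 CPM in SUS mice, against 119, 118 and 109 CPM in SED mice (log2 fold change 0.17, SE 0.05, edgeR adjusted p = 0.2), and Atp5g2 39.4, 40.5 and 42.9 CPM in SUS mice, against 38.3, 34.1 and 36.97 CPM in SED mice (log2 fold change 0.17, SE 0.08, edgeR adjusted p = 0.376). Both were higher without overlap, whereas Atp5g1 had 48.8, 53.4 and 57.5 CPM in SUS mice, against 57.01, 55.02 and 53.5 CPM in SED mice (-0.05, SE 0.07), with overlap. In the peripheral stalk Atp5o, the protein that confers oligomycin sensitivity, had 129, 118 and 119.8 CPM in SUS mice, against 109.8, 112 and 104 CPM in SED mice (log2 fold change 0.17, SE 0.06, edgeR adjusted p = 0.216). Of the small membrane subunits that shape the dimer, Atp5k (subunit e) had 89.4, 79.7 and 80.3 CPM in SUS mice, against 71.6, 78.1 and 66.2 CPM in SED mice (log2 fold change 0.21, SE 0.07, edgeR adjusted p = 0.201), and Atp5j2 (subunit f) 88.5, 76.9 and 85.9 CPM in SUS mice, against 71.3, 76.9 and 72.9 CPM in SED mice (log2 fold change 0.18, SE 0.06, edgeR adjusted p = 0.216). In all 3 the SUS values lay above the SED values, in Atp5j2 by under 0.1 CPM. Atp5l (subunit g) and Atp5h (stalk subunit d) had log2 fold changes of 0.17 and 0.12, and these 2 are among the genes whose reads are shared with copies.

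In SUS_LE mice most members stood slightly below their level in SUS mice, and again no single gene passed the main test. Of 84 members 56 had a negative log2 fold change and 28 a positive one, while 50.3% of all tested genes had a positive one, and the medians were -0.050 over members and 0.0011 over all tested genes. This comparison uses the same 3 SUS libraries as the one with SED mice, so the 2 are not independent. By edgeR and by limma voom 0 members passed (0% of all genes by edgeR), with a smallest edgeR adjusted p of 0.107. DESeq2 called 2 members lower, Uqcrq and Atp5d, and 0 higher, against 0.453% and 0.664% of all genes (1.12% in all). It gave 13 members and 10617 of all 16106 genes no adjusted p, and these shares count such genes as not called. Without its independent filtering DESeq2 called 0 members. Without SUS 2 edgeR called 5 members lower, without SUS 1 it called 1, Cox6b2, and without any other single library 0. Over all genes these fits without 1 library called 0 to 184. At an unadjusted edgeR p under 0.05, 15 members were lower and 1 higher, against 6.49% and 7.20% of all genes. In 19 members the SUS_LE values lay below all SUS values and in 3 above, against 8.38% and 8.61% of all genes.

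By complex, 13 of 17 members were below 0 in complex V (median -0.075), 6 of 9 in complex III (-0.076), 28 of 41 in complex I (-0.033), 7 of 13 in complex IV (-0.033) and 2 of 4 in complex II (-0.0084). Complexes V, III and I held 6, 3 and 5 of the 15 members lower at an unadjusted p under 0.05. Summed complex V had 2572, 2585 and 2512 CPM in SUS_LE mice, against 2673, 2657 and 2644 CPM in SUS mice. Summed complex III had 720.2, 742 and 733 CPM in SUS_LE mice, against 755, 778 and 785 CPM in SUS mice. Neither pair overlapped, and nor did summed complex I, with 2392, 2424 and 2405 CPM in SUS_LE mice against 2456, 2446 and 2517 CPM in SUS mice. Summed complex II overlapped, at 492, 488 and 483 CPM in SUS_LE mice against 499, 486 and 492 CPM in SUS mice. So did summed complex IV, at 1486, 1449 and 1458 CPM in SUS_LE mice against 1449, 1515 and 1507 CPM in SUS mice.

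Here too other values moved alongside. Log2 fold changes followed length and GC content over all genes (rho 0.115 and -0.394, across 14911 genes), and 41.1% of genes shorter than 1000 bases had a positive one, with a median of -0.039, against -0.072 over members of that length. With those trends removed 54 members were below 0 (median -0.029), 8 of them at an unadjusted p under 0.05, and the median of complex V was -0.063. Of all 16106 genes in that fit, 8243 were below 0, 719 of them at that p. Of the markers, 7 of 8 for oligodendrocytes had positive log2 fold changes, with sums of 2603 to 3220 CPM in SUS_LE mice against 2538 to 2899 CPM in SUS mice. Those for endothelium had positive ones in 6 of 8, with sums of 271 to 289 CPM in SUS_LE mice against 229.9 to 258 CPM in SUS mice. Those for choroid plexus had negative ones in 10 of 10 (median -2.12), with sums of 216 to 2266 CPM in SUS_LE mice against 141 to 8533 CPM in SUS mice. No marker of these lists was at 0 in any library. With a choroid plexus score as a covariate 51 members were below 0 (median -0.043), and without the 3 libraries low in Ttr, with 1 SUS_LE mouse left, 59 were (median -0.058). Dentate granule markers had positive log2 fold changes in 6 of 6 (median 0.22), with sums of 763 to 878 CPM in SUS_LE mice against 718 to 753 CPM in SUS mice, without overlap. Erythrocyte markers had negative ones in 5 of 5 tested (median -0.62), with sums of 113 to 181 CPM in SUS_LE mice against 151 to 264 CPM in SUS mice. Astrocyte markers had positive ones in 6 of 8 (median 0.075). Their sums were 5412 to 5651 CPM in SUS_LE mice against 4962 to 5142 CPM in SUS mice, without overlap. Neuron markers had positive log2 fold changes in 6 of 10 and negative ones in 4 (median 0.059), while most members had negative ones. Neuron sums were 8223 to 8664 CPM in SUS_LE mice against 7792 to 8583 CPM in SUS mice, with overlap. The part of RNA of neurons, oligodendrocytes, astrocytes, endothelium, granule cells and erythrocytes in these values was not tested.

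In complex III 3 small subunits were lower in every SUS_LE mouse than in every SUS mouse. Uqcrq had 54.5, 58.1 and 56.7 CPM in SUS_LE mice, against 70.2, 63.2 and 69.6 CPM in SUS mice (log2 fold change -0.26, SE 0.06, edgeR adjusted p = 0.107). DESeq2 gave it an adjusted p of 0.0274, and over 23 alternatives the adjusted p ran from 0.0145 to 0.545, always with a lower level in SUS_LE mice. Uqcr11, a small subunit at the edge of the complex whose promoter holds the ETS match printed above, had 53.6, 52.7 and 47.99 CPM in SUS_LE mice, against 61.7, 55.8 and 65.04 CPM in SUS mice (log2 fold change -0.24, SE 0.07, edgeR adjusted p = 0.146). Uqcrh had 123, 123 and 127 CPM in SUS_LE mice, against 140.1, 136 and 138 CPM in SUS mice (log2 fold change -0.15, SE 0.05, edgeR adjusted p = 0.178). In Uqcr11 and Uqcrq the mouse SUS 2 was the lowest of its group. Uqcrc1 and Cyc1 also did not overlap (log2 fold changes -0.11 and -0.08), while Uqcrfs1 did (0.06).

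In complex V Atp5d had 69.6, 70.7 and 73.8 CPM in SUS_LE mice, against 85.6, 78.6 and 89.03 CPM in SUS mice (log2 fold change -0.24, SE 0.06, edgeR adjusted p = 0.116). All 3 SUS_LE values were below every SUS value. DESeq2 gave it an adjusted p of 0.0346, and over 23 alternatives the adjusted p ran from 0.0169 to 0.556, with log2 fold changes of -0.30 to -0.12. Atp5e had 26.7, 27.3 and 30.02 CPM in SUS_LE mice, against 35.1, 28.9 and 33.2 CPM in SUS mice (log2 fold change -0.21, SE 0.09, edgeR adjusted p = 0.322), where SUS_LE 3 lay above SUS 2. Atp5g3 had 119.6, 121 and 119 CPM in SUS_LE mice, against 134, 131 and 124 CPM in SUS mice (log2 fold change -0.11, SE 0.05, edgeR adjusted p = 0.351), and Atp5k 73.8, 76.98 and 72.98 CPM in SUS_LE mice, against 89.4, 79.7 and 80.3 CPM in SUS mice (log2 fold change -0.16, SE 0.07, edgeR adjusted p = 0.311). Neither of these 2 overlapped. Atp5b averaged 703 ± 14.9 CPM in SUS_LE and 733 ± 17.1 CPM in SUS mice (-0.06, SE 0.05), and Atp5a1 449 ± 20.9 CPM in SUS_LE and 460.4 ± 12.6 CPM in SUS mice (-0.04, SE 0.05), both with overlap.

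In complex I the members with the smallest p were accessory subunits. Ndufv3 had 68.6, 71.3 and 72.2 CPM in SUS_LE mice, against 82.5, 74.7 and 88.1 CPM in SUS mice (log2 fold change -0.21, SE 0.06, edgeR adjusted p = 0.16), and Ndufa11 had 36.3, 36.2 and 37.9 CPM in SUS_LE mice, against 45.1, 39.1 and 47.4 CPM in SUS mice (log2 fold change -0.25, SE 0.08, edgeR adjusted p = 0.168). Both were lower in all 3 SUS_LE mice. Ndufs6 (-0.23), which binds zinc, Ndufb7 (-0.18) and Ndufa13 (-0.17) completed the 5 lower members of this complex under an unadjusted p of 0.05. Ndufs1 (0.03), Ndufs4 (-0.01) and Ndufab1 (0.00) stayed near 0. The 1 member higher at that p was Ndufb4c, with 15.5, 20.8 and 15.6 CPM in SUS_LE mice, against 12.1, 15.3 and 11.7 CPM in SUS mice (log2 fold change 0.41, SE 0.14, edgeR adjusted p = 0.195). Every 31-base word of its transcript also occurs in Ndufb4, so its count is uncertain. Ndufb4 itself averaged 48.6 ± 2.88 CPM in SUS_LE and 47.0 ± 5.83 CPM in SUS mice (0.05, SE 0.08), and Ndufb4b had 0 counts in SUS_LE 2 but 83 and 61 in the other SUS_LE mice.

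**Figure D4:**
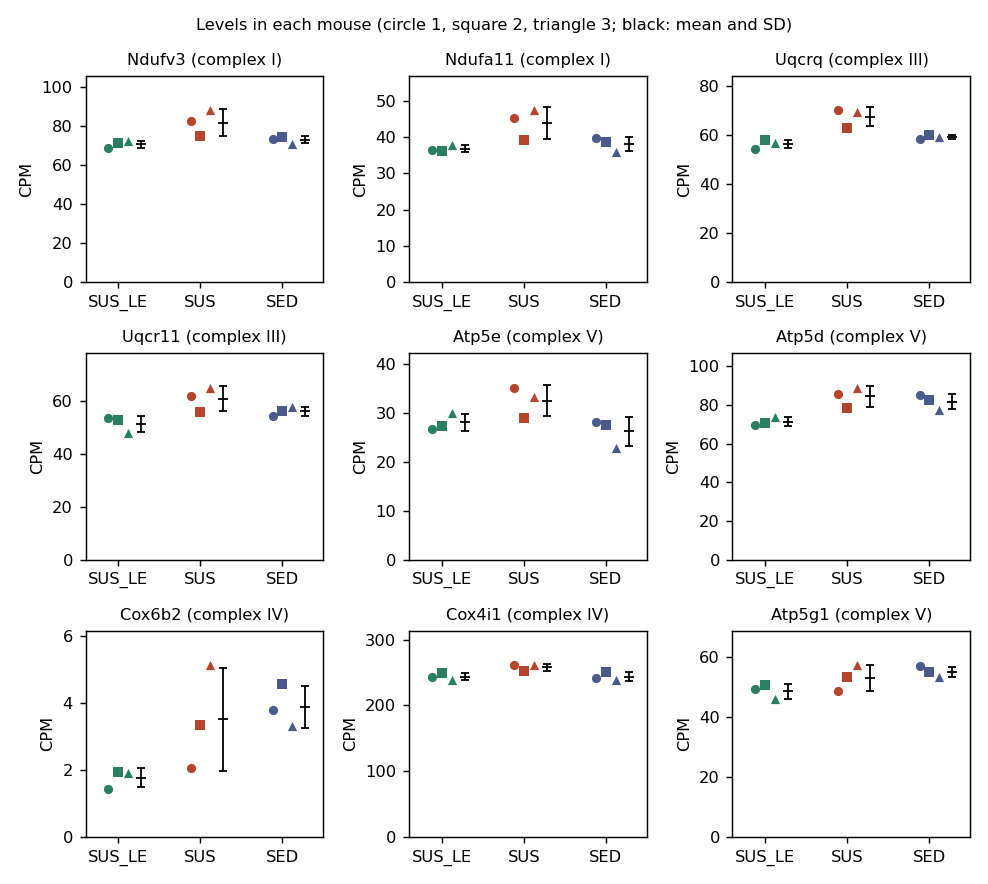
CPM of 9 members in each mouse, with the group mean and SD in black and every axis starting at 0. The group means of Uqcrq, Ndufv3 and Uqcr11 are highest in SUS mice, Cox6b2 is lowest in SUS_LE mice (1.44 to 1.95 CPM), and Cox4i1 differs little (238 to 261 CPM).

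Between SUS_LE and SED mice fewer members were under an unadjusted p of 0.05 than in either other comparison. Of 84 members 61 had a positive log2 fold change and 23 a negative one, while 52.9% of all genes had a positive one, and the medians were 0.050 over members and 0.0085 over all tested genes. By edgeR, limma voom and DESeq2 0 members passed (0% of all genes by edgeR and 0.0993% by DESeq2, of which 0.0124% higher), with a smallest edgeR adjusted p of 0.456. At an unadjusted edgeR p under 0.05, 4 were higher and 4 lower, against 2.79% and 3.86% of all genes (6.64% in all). The SUS_LE values lay above all SED values in 12 members and below in 5, against 7.54% and 8.64% of all genes. Without SED 3 the median was 0.017, and with a choroid plexus score as a covariate 0.052. It was 0.0093 with length and GC trends removed, against 0.0067 over all tested genes in that fit. Without the 3 libraries low in Ttr, with 1 SUS_LE mouse left, 55 members were above 0 (median 0.036). Choroid plexus markers had negative log2 fold changes in 10 of 10 (median -2.54), with sums of 216 to 2266 CPM in SUS_LE mice against 4370.0 to 6345 CPM in SED mice, without overlap. Ependyma markers had negative ones in 7 of 8 (median -0.36), with sums of 38.4 to 54.4 CPM in SUS_LE mice against 58.1 to 70.4 CPM in SED mice, also without overlap. Neuron markers had positive ones in 9 of 10 (median 0.078), with sums of 8223 to 8664 CPM in SUS_LE mice against 7941 to 8087 CPM in SED mice, again without overlap. The part of neuron and ependymal RNA in these values was not tested.

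Complex III was the 1 complex with a median below 0 here (-0.038, 6 of 9 lower). Uqcr11 had 53.6, 52.7 and 47.99 CPM in SUS_LE mice, against 54.1, 56.3 and 57.6 CPM in SED mice (log2 fold change -0.12, SE 0.07, edgeR adjusted p = 0.79), and Uqcrq 54.5, 58.1 and 56.7 CPM in SUS_LE mice, against 58.4, 60.1 and 59.5 CPM in SED mice (log2 fold change -0.07, SE 0.06, edgeR adjusted p = 0.869), both lower without overlap. Atp5d had 69.6, 70.7 and 73.8 CPM in SUS_LE mice, against 85.2, 82.5 and 77.7 CPM in SED mice (log2 fold change -0.20, SE 0.06, edgeR adjusted p = 0.516), also without overlap. On the higher side Cox6b1 had 94.3, 97.6 and 94.7 CPM in SUS_LE mice, against 85.9, 89.99 and 87.8 CPM in SED mice (log2 fold change 0.12, SE 0.05, edgeR adjusted p = 0.719), and Ndufa5 81.2, 82.2 and 82.9 CPM in SUS_LE mice, against 76.7, 73.3 and 75.5 CPM in SED mice (log2 fold change 0.13, SE 0.06, edgeR adjusted p = 0.749). Cox5b, a zinc-binding subunit of complex IV, had 153, 146 and 156 CPM in SUS_LE mice, against 179, 190.0 and 154 CPM in SED mice (log2 fold change -0.20, SE 0.08, edgeR adjusted p = 0.661), where the lowest SED value was inside the SUS_LE range.

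Over the 3 groups, SUS mice had the highest mean in 50 members, SUS_LE mice in 26 and SED mice in 8, against 35.8%, 33.6% and 30.6% of all tested genes. SED mice had the lowest mean in 53 members. The test of any difference among the groups gave 0 members past an adjusted p of 0.05 by edgeR (0% of all genes), with a smallest adjusted p of 0.158 for Uqcrq, and 19 members at an unadjusted p under 0.05, against 13.5% of all genes.

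Several subunits have paired forms that differ by tissue, and their shares were set per kilobase of transcript. Cox6b2, known as the testis form of Cox6b1, was the member with the largest log2 fold change between groups. It had 1.44, 1.95 and 1.91 CPM in SUS_LE mice, 2.06, 3.33 and 5.14 CPM in SUS mice, and 3.79, 4.56 and 3.31 CPM in SED mice. All SUS_LE values were below every SUS and SED value, and SUS mice spread from near the SUS_LE range to above the SED range. Its log2 fold change was -0.99 in SUS_LE against SUS mice (SE 0.29, edgeR adjusted p = 0.158) and -1.13 in SUS_LE against SED mice (SE 0.29, edgeR adjusted p = 0.456). Adjusted p ran from 0.0105 to 0.369 and from 0.00154 to 0.964 over alternatives. With a choroid plexus score as a covariate the 2 log2 fold changes were -0.60 and -0.51. Cox6b2 made up 1.68%, 2.18% and 2.20% of the Cox6b pair in SUS_LE mice, 2.25%, 3.84% and 5.44% in SUS mice, and 4.70%, 5.35% and 4.05% in SED mice. A 2-sided exact permutation test gave p = 0.1 for SUS_LE against SUS mice and against SED mice, the smallest that 3 against 3 mice allow, and p = 0.5 for SUS against SED mice.

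In the subunit c genes, Atp5g3 supplied 66.2% of the level per kilobase over all libraries, Atp5g2 26.1% and Atp5g1 7.68%. These shares depend on the annotated lengths used, 718.5 bases for Atp5g3, 586 for Atp5g2 and 2675.5 for Atp5g1. Without division by length, Atp5g1 stood above Atp5g2, with means of 52.3 and 39.0 CPM, and Atp5g3 had 121 CPM. The share of Atp5g2 is also uncertain, since 87.7% of the words of its transcript occur in other genes' transcripts. The share of Atp5g1 was 7.09%, 7.49% and 7.03% in SUS_LE mice, 6.71%, 7.36% and 8.04% in SUS mice, and 8.45%, 8.46% and 8.51% in SED mice. Every SED mouse was above every other mouse, and the exact permutation p was 0.1 against SUS_LE and against SUS mice, again the smallest possible, and 0.8 between SUS_LE and SUS mice. The other restricted forms supplied little: Cox6a2, the heart and muscle form, 2.30% of the Cox6a pair, Cox7a1 1.44% of Cox7a1 and Cox7a2, Ndufa4l2 0.730% of the Ndufa4 pair, Cox8b 0.704% of the Cox8 pair, Cox4i2 0.399% of the Cox4 pair, and Cox7b2 0.268% of Cox7b and Cox7b2. Exact permutation p was 0.3 or more in every comparison of these shares except Cox8b in SUS_LE against SED mice (p = 0.1), on 1 to 20 counts a library. In all, 10 shares were compared in 3 comparisons each, and with a smallest possible p of 0.1 none can pass an adjustment.

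The 13 mRNAs that mitochondrial DNA encodes for complexes I, III, IV and V had their lowest share in SUS mice. They made up 13.9%, 13.7% and 14.95% of scaled counts in SUS_LE mice, 12.1%, 13.2% and 12.2% in SUS mice, and 13.3%, 13.3% and 13.4% in SED mice. The 84 nuclear members made up 0.766%, 0.769% and 0.759% in SUS_LE mice, 0.783%, 0.788% and 0.795% in SUS mice, and 0.756%, 0.769% and 0.729% in SED mice. Their ratio was 0.0550, 0.0562 and 0.0508 nuclear per mitochondrial count in SUS_LE mice, 0.0646, 0.0598 and 0.0653 in SUS mice, and 0.0568, 0.0580 and 0.0545 in SED mice. All 3 SUS mice were above all 6 others, with SUS 2 the nearest to them. The length and GC trends described above were not removed from this ratio, and their part in it was not tested. Of these mRNAs DESeq2 called 6 higher in SUS_LE than in SUS mice (0.664% of all genes) and 2 lower in SUS than in SED mice (0.515% of all genes). These shares count genes without an adjusted p as not called, while all 13 mRNAs had one. By edgeR 0 of these mRNAs passed (0% of all genes). At an unadjusted edgeR p under 0.05, 8 were higher and 2 lower in these comparisons, against 7.20% and 6.26% of all genes.

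**Figure D5:**
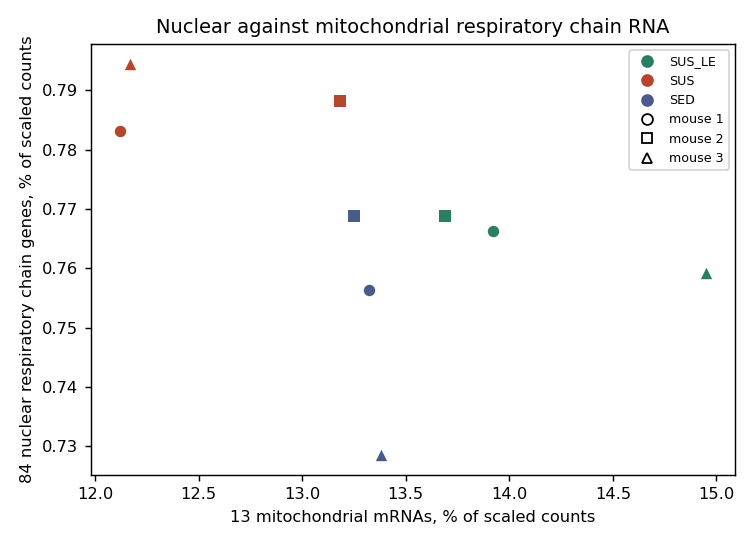
Share of scaled counts in the 84 nuclear members against the share in the 13 mitochondrial mRNAs, in percent, 1 point for each mouse. The SUS mice lie at the upper left (12.1% to 13.2% mitochondrial, 0.783% to 0.795% nuclear) and the SUS_LE mice at the right.

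Factors that build the complexes are not subunits and were counted apart. Of 16 complex I assembly genes 11 had positive log2 fold changes in SUS against SED mice (median 0.082), of 13 for complexes II and III 7 (0.039), of 25 for complex IV 17 (0.066), and of 6 for complex V 3 (0.021). Uqcc2, which stabilises new cytochrome b, had 48.5, 44.3 and 45.2 CPM in SUS mice, against 38.8, 38.9 and 36.8 CPM in SED mice (log2 fold change 0.27, SE 0.07, edgeR adjusted p = 0.134), without overlap. Cox10, which makes the heme a precursor, averaged 26.7 ± 2.07 CPM in SUS and 22.9 ± 1.25 CPM in SED mice (log2 fold change 0.22, SE 0.08, edgeR adjusted p = 0.253). Atpif1, the inhibitor that stops ATP synthase from running backward, averaged 157 ± 7.68 CPM in SUS and 144 ± 9.14 CPM in SED mice (log2 fold change 0.12, SE 0.06, edgeR adjusted p = 0.363). In SUS_LE against SUS mice the counts above 0 were 6 of 16, 6 of 13, 14 of 25 and 3 of 6, with medians of -0.045, -0.039, 0.0063 and 0.018. No assembly gene passed by edgeR in either comparison, with 4 and 0 at an unadjusted p under 0.05, against 13.1% and 13.7% of all genes.

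Of 15 genes of mobile electron carriers, ubiquinone synthesis and electron transfer flavoproteins, 11 had positive log2 fold changes in SUS against SED mice (median 0.052) and 6 in SUS_LE against SUS mice (median -0.0098). Cycs, cytochrome c itself, averaged 167 ± 5.597 CPM in SUS_LE mice, 162 ± 8.91 CPM in SUS mice and 158 ± 4.95 CPM in SED mice (SD, n = 3 each), within the spread between mice. Etfb, which passes electrons from fatty acid oxidation toward ubiquinone, had 20.3, 17.3 and 16.5 CPM in SUS_LE mice, against 22.6, 19.99 and 24.9 CPM in SUS mice (log2 fold change -0.32, SE 0.10, edgeR adjusted p = 0.178). Coq8b, of ubiquinone synthesis, averaged 14.99 ± 1.499 CPM in SUS_LE and 18.7 ± 2.07 CPM in SUS mice (log2 fold change -0.32, SE 0.11, edgeR adjusted p = 0.191).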

How the data were processed

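The authors deposited 1 table of counts per library, whole numbers per gene symbol, not normalized, per the file headers and values. Per the submitters' processing notes they used fastp, STAR and Salmon on GRCm39. Versions, annotation, strand setting, use of molecular identifiers and any rounding of Salmon's estimates are not given in the sources used here. Per the labels, the library kit was CORALL RNA-seq V2. Column headers number the exercised libraries otherwise than the labels, whose numbers are used here.

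R 4.3.3 with edgeR 4.0.16 was used. Genes were filtered by filterByExpr (16106 left, with 99.88% of counts), scaled by TMM, and fitted to all 9 libraries by the robust quasi-likelihood model with group as the only term. P-values were adjusted over all tested genes by Benjamini-Hochberg, with a threshold of 0.05. SE is the log2 fold change divided by the root of F. CPM uses TMM-scaled totals. Fold changes are the first named group over the second. DESeq2 1.42.0 (with independent filtering) and limma 3.58.1 (voom with quality weights) were alternatives, beside other scalings, filters, a replicate block, leaving out libraries, a choroid plexus covariate, and removal of length and GC trends. DESeq2 without independent filtering was chosen after seeing the data. The edgeR and trend steps were tested on simulated data. Counting error is small at these depths, and a count of 0 allows up to 3 counts.

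Lengths and GC content came from GENCODE M21 (GRCm38), found by symbol for 92.6% of the genes tested, and serve trends and levels per kilobase only. Libraries of a group differed by a chi-square of 2.70 to 14.6 for each degree of freedom, so none is a duplicate. Each label names 1 mouse. Members and lists were chosen with earlier results of these data known, so counts over them are descriptions. Genes named were those with the highest level or smallest p in each complex, a list of well-known subunits, and the 2 with the smallest p of each other list. Ndufa2, Ndufa13, Ndufb4, Ndufb4b, Ndufb7, Ndufb8, Ndufb9, Ndufs6, Uqcrb, Cox7c, Atp5c1, Atp5h, Atp5k, Atp5l, Cycs, Nrf1, Ppargc1a, Tfam, the muscle markers and the members below the floor were named after their values were seen.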

Additional observations from a re-analysis of the deposited data

How the results depend on the processing

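The median log2 fold change of members kept its sign under every alternative run. It ran from 0.019 to 0.11 in SUS against SED mice and from -0.058 to -0.029 in SUS_LE against SUS mice. In SUS_LE against SED mice it ran from 0.0093 to 0.062. The first fell to 0.019 and the third to 0.0093 with length and GC trends removed, which takes out trends that short transcripts share. In that fit the medians over all tested genes were 0.0026, -0.0032 and 0.0067, so the third stood close to that of all genes. Leaving out 1 library gave 0.066 to 0.11, -0.057 to -0.035 and 0.017 to 0.062. Members called, 0 in each main test, numbered 1 (Atp5e), 5, 2 and, for any difference among the groups, 5 with no filter on low counts. In SUS_LE against SUS mice they numbered 2 (Uqcrq and Atp5d) by DESeq2 and with the choroid plexus covariate, 1 (Ndufb4b) without the 3 libraries low in Ttr, and 0 to 5 without 1 library. The 5 came without SUS 2, and 1 (Cox6b2) without SUS 1. In SUS_LE against SED mice they numbered 2 (Cox6b2 and Ndufb4c) with only those groups in the fit, 2 (Ndufb4b and Ndufb4c) without the 3 libraries, and 0 to 1 without 1 library. For any difference they numbered 1 (Ndufb4b) without the 3 libraries and 0 to 1 without 1 library. Without the 3 libraries the SUS_LE group is 1 mouse, SUS_LE 2, which has 0 counts of Ndufb4b and the highest Ndufb4c, and is assumed to vary like the others, so these calls rest on 1 mouse. Calls over all genes rose too. In the 3 comparisons, in the order above, they ran from 0 to 74, 0 to 184 and 0 to 69 without 1 library. Under the other alternatives they ran from 0 to 297, 0 to 430 and 0 to 239. The cause of these changes was not tested. Shares of all genes for each single setting, limma voom included, are not given here. Nor are those for any difference under the alternatives, so these member counts cannot be read as more or fewer than among all genes. With replicate number as a block, 0 members were called, with medians of 0.085, -0.057 and 0.051, so the block changed no call. Same-numbered libraries correlated at -0.123 to 0.180. Libraries with different numbers were not compared, so these values cannot tell whether the numbers pair the mice. Of 4749 pairs of a named gene and an alternative, 26 were newly past the threshold and 203 changed sign, none of them called. With 3 mice a group, the spread limits what can be called. Ndufa4l2, Ndufb4b, Cox6a2 and Cox6b2 rest on low counts.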

Other observations

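Genes around the respiratory chain that are neither subunits nor assembly factors gave mixed values. Of 16 genes of the tricarboxylic acid cycle 13 had positive log2 fold changes in SUS against SED mice (median 0.032) and 11 in SUS_LE against SUS mice (median 0.016). Cs, citrate synthase, a common measure of mitochondrial content, averaged 208 ± 5.68 CPM in SUS_LE mice, 192 ± 10.6 CPM in SUS mice and 201 ± 5.46 CPM in SED mice (SD, n = 3 each). Between SUS_LE and SUS mice its statistics were log2 fold change 0.12, SE 0.05, edgeR adjusted p = 0.325. Idh3g, of the NAD-linked isocitrate dehydrogenase, averaged 91.98 ± 2.99 CPM in SUS and 84.5 ± 2.57 CPM in SED mice (log2 fold change 0.12, SE 0.05, edgeR adjusted p = 0.332). Of 18 genes of mitochondrial import and structure 8 had positive log2 fold changes in SUS against SED mice (median -0.012) and 12 in SUS_LE against SUS mice (median 0.015). Timm23, the import channel of the inner membrane, averaged 41.3 ± 0.796 CPM in SUS_LE and 36.8 ± 1.18 CPM in SUS mice (log2 fold change 0.16, SE 0.07, edgeR adjusted p = 0.279).

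Of 19 regulators of mitochondrial biogenesis 9 had positive log2 fold changes in SUS against SED mice (median -0.0074). Gabpa, the DNA-binding subunit of GABP, whose ETS motif was counted in the promoters above, had 27.4, 30.5 and 27.2 CPM in SUS_LE mice, 20.1, 24.2 and 26.9 CPM in SUS mice, and 27.9, 31.6 and 32.3 CPM in SED mice. SUS mice were lowest (log2 fold change -0.37, SE 0.10, edgeR adjusted p = 0.155), while SUS_LE values lay near those of SED mice (log2 fold change 0.26, SE 0.10, edgeR adjusted p = 0.253 between SUS_LE and SUS mice). In SUS against SED mice the median log2 fold change of members with and without a match was 0.116 and 0.0752 for ETS, 0.106 and 0.0803 for NRF1, 0.119 and 0.0790 for YY1, 0.129 and 0.0771 for TATA, and 0.0735 and 0.0861 for SP1. In SUS_LE against SUS mice it was -0.0589 and -0.0545 for ETS, -0.0450 and -0.0589 for NRF1, -0.0770 and -0.0545 for YY1, -0.104 and -0.0438 for TATA, and -0.0266 and -0.0731 for SP1. YY1 and TATA matches were found in 7 and 6 members, and no motif was tested. Ppargc1a, the coactivator PGC-1alpha, averaged 76.3 ± 4.41 CPM in SUS_LE mice, 76.8 ± 5.84 CPM in SUS mice and 74.1 ± 2.45 CPM in SED mice, Nrf1 17.9 ± 1.92 CPM in SUS_LE mice, 18.3 ± 0.692 CPM in SUS mice and 18.4 ± 0.933 CPM in SED mice, and Tfam, which packages mitochondrial DNA, 33.97 ± 2.17 CPM in SUS_LE mice, 33.96 ± 2.16 CPM in SUS mice and 33.9 ± 2.43 CPM in SED mice. Their edgeR adjusted p was 0.788 or more in SUS against SED mice.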
